A study of Homo sapiens with 6 samples.

Results

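SR proteins and heterogeneous nuclear ribonucleoproteins (hnRNPs) were examined in A549, a human cell line from a lung adenocarcinoma, in 3 libraries labelled siNC (genotype label wild type) and 3 labelled siFOXD3, named for a small interfering RNA against the transcription factor FOXD3. The labels give no other treatment, dose or time, do not say what siNC stands for, and do not tell if each replicate came from its own culture. The p-values here rest on the variation among these libraries alone, part or all of which may be technical. Members were taken by symbol, SRSF followed by a number or HNRNP followed by a letter, with pseudogenes left out. That gave 32 of the 17787 symbols in the files: 11 SR proteins, 19 hnRNPs and 2 symbols that are not separate protein genes (HNRNPU-AS1, an antisense RNA, and HNRNPUL2-BSCL2, a readthrough transcript). All 32 passed the filter on low values. Every value is in FPKM (fragments per transcript length and per mapped total), so levels can be set side by side between genes.

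SR proteins carry RNA recognition motifs and a tail rich in arginine and serine, and they bind exonic enhancers to promote the use of nearby splice sites. hnRNPs coat nascent transcripts and often, though not always, oppose SR proteins at the same exons. Many members of both families control their own messages through exons whose inclusion or skipping leads to nonsense-mediated decay. All transcripts of a gene share 1 value in the files, so productive and decay-prone messages cannot be told apart here.

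FOXD3 itself was under 1 FPKM in every library, at 0.152, 0.291 and 0.134 FPKM in siNC and at 0, 0.0749 and 0 FPKM in siFOXD3, below the filter and so not tested. All 12 markers of lung epithelial carcinoma lines were expressed, with 7 called higher and 3 lower, against 27.2% and 38.7% of all 12555 genes tested. The 12 markers summed to 8560 to 9560 FPKM in siNC and 11300 FPKM in siFOXD3. Mean ALDH1A1 rose from 31.7 to 98.1 FPKM, AKR1B10 from 390.7 to 752.5 FPKM and KRT8 from 2059 to 3203 FPKM. EGFR fell from 249 to 164 FPKM. The extraction protocol in the labels mentions retina, but of 13 photoreceptor and retina markers ABCA4 alone reached 1 FPKM and rhodopsin was at or near 0; the list summed to 2.51 to 3.03 FPKM in siNC and 3.76 to 4.30 FPKM in siFOXD3. Leukocyte markers, mostly CD68, summed to 79.4 to 89.4 FPKM and 70.0 to 71.6 FPKM, with PTPRC near 0. All 4 leukocyte markers tested were called lower, against 38.7% of all genes tested. CD68 went from 73.96 to 65.96 FPKM, CSF1R from 4.57 to 2.78 FPKM, CD14 from 2.92 to 1.25 FPKM and LAPTM5 from 2.06 to 0.21 FPKM. Fibroblast and endothelial markers summed to 6.42 to 7.93 FPKM and 5.01 to 5.64 FPKM. Of these, CDH5 was called lower, from 2.73 to 1.82 FPKM, and COL1A1 was not called (3.91 and 3.20 FPKM). The part of these lists in the results was not tested. In bulk RNA, a change in the number of cells that carry a message and a change in its amount per cell cannot be told apart.

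Both families were higher in siFOXD3. Of the 11 SR proteins, 10 rose and none fell by limma with Benjamini-Hochberg adjustment (called at an adjusted p under 0.05), and of the 19 hnRNPs, 15 rose and none fell. At an unadjusted p under 0.05, none of the SR proteins and none of the hnRNPs was lower, while under quantile normalization SRSF5 and HNRNPA1 were called lower. Over all 12555 genes tested, 65.9% were called, 27.2% higher and 38.7% lower, so that 41.3% of the called genes were higher, a share that was 52.6% under quantile normalization (4255 against 3835). Most members are abundant, so a second background was added after the data were seen: among the 4123 genes with a mean of at least 20 FPKM, 41.2% were called higher, against 23 of the 27 protein genes of both families at that level. Tested against a fold of 1.2, 6 SR proteins and 12 hnRNPs were called higher, against 12.9% of all genes tested. The median log2 fold change was 0.73 for SR proteins and 0.63 for hnRNPs, against -0.08 for all genes tested. All 30 protein genes lay above that all-gene median. Among the 4123 genes with a mean of at least 20 FPKM the median was higher, at 0.059. SRSF5 (-0.0565) and HNRNPF (0.0578) did not lie above that second median. Quantile normalization shifted the all-gene median by 0.10; relative to it, SR proteins lay at 0.81 as deposited and 0.65 after quantile normalization, and hnRNPs at 0.705 and 0.49.

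The contrast between the families was small beside the spread within each. Their median log2 fold changes differed by 0.10, while changes ran from -0.06 to 1.36 among SR proteins (SD 0.44 over genes) and from 0.06 to 1.28 among hnRNPs (SD 0.35). A rise of at least 0.5 on the log2 scale was called for 6 of 11 SR proteins and 11 of 19 hnRNPs, against 11.2% of all genes. The 2 groups did not overlap, with siFOXD3 higher, for 9 SR proteins and 18 hnRNPs, against 29.6% of all genes. With siFOXD3 lower, they did not overlap for 1 SR protein (SRSF5) and no hnRNP, against 5155 of the 12555 genes tested.

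**Figure D1:**
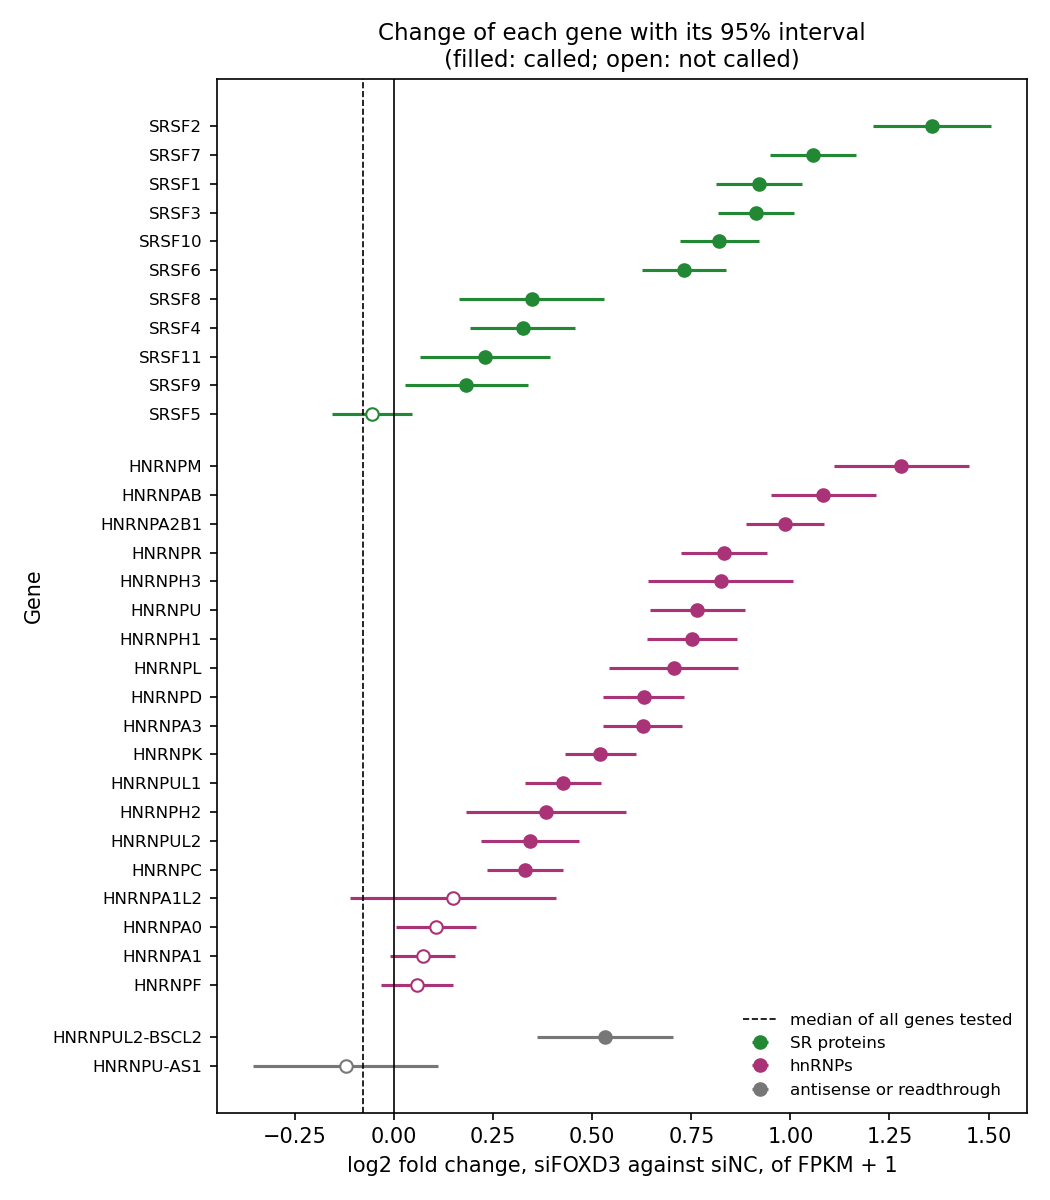
Log2 fold change of FPKM + 1 (siFOXD3 against siNC, 3 libraries each) on the horizontal axis for each gene, with its 95% interval as a bar. Filled points passed the test, the dashed line is the all-gene median of -0.08, and SRSF2 (1.36) and HNRNPM (1.28) stand at the top of their families.

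Family totals rose as well. The SR proteins summed to 685, 668 and 672 FPKM in the siNC libraries (replicates 1 to 3) and to 1056, 1091 and 1094 FPKM in siFOXD3, a ratio of 1.60. The hnRNPs summed to 2839, 2821 and 2776 FPKM in siNC and to 3985, 4043 and 4108 FPKM in siFOXD3, a ratio of 1.44. In each family every siFOXD3 total was above every siNC total. The SR total therefore went from 24.0% ± 0.295 of the hnRNP total in siNC to 26.7% ± 0.241 in siFOXD3 (mean ± SD, n = 3 libraries each). On the mean log2(FPKM + 1) scale the SR family minus the hnRNPs was -1.07 ± 0.02 in siNC and -1.03 ± 0.01 in siFOXD3 (SD, n = 3 each).

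The bases before the transcription start are shown for 6 members that stand for the range of changes: SRSF7 and SRSF3, which about doubled, SRSF5, which was not called, HNRNPM and HNRNPA2B1, among the largest rises of the hnRNPs, and HNRNPF, which was not called. Each sequence is the 250 bases before the first start listed for the gene in RefSeq (GRCh38.p14), read 5′ to 3′ on the gene's strand. Capitals mark CACGTG (the E-box), CCAAT or its reverse complement ATTGG (the CCAAT box) and TGTTTAC (a forkhead core), searched on both strands. The windows are SRSF7 chr2:38751495-38751744 (minus strand), SRSF3 chr6:36594112-36594361 (plus), SRSF5 chr14:69766892-69767141 (plus), HNRNPM chr19:8444725-8444974 (plus), HNRNPA2B1 chr7:26200747-26200996 (minus) and HNRNPF chr10:43408858-43409107 (minus).
SRSF7: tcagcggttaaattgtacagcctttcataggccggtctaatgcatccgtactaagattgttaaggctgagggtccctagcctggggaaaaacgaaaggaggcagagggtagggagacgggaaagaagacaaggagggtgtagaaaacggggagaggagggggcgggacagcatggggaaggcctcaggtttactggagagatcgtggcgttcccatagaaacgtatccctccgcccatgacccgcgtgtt
SRSF3: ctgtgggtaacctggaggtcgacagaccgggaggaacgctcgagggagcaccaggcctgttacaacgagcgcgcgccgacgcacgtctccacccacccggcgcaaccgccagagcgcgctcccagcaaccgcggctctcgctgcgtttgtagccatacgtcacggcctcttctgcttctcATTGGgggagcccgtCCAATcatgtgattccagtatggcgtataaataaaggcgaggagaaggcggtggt
SRSF5: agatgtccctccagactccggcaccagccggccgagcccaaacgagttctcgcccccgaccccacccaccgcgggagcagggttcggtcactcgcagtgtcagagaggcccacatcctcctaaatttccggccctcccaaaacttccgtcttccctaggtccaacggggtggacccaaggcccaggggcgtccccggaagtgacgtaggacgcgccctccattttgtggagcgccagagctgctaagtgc
HNRNPM: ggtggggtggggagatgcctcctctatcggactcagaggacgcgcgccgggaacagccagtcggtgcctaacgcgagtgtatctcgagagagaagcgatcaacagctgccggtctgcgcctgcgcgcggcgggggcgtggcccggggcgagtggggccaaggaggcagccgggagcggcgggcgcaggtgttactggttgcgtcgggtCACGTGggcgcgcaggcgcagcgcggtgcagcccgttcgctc
HNRNPA2B1: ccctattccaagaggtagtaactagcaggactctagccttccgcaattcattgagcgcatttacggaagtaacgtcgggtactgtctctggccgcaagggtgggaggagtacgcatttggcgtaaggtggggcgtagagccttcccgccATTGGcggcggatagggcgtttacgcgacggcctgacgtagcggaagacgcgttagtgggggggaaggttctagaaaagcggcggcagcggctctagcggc
HNRNPF: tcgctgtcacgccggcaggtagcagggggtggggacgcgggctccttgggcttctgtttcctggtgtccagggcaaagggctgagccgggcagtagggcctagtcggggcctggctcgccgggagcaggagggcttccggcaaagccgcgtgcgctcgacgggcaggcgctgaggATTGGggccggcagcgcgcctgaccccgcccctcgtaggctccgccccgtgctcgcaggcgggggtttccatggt

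The windows of the families are described by 7 short motifs chosen after the data were seen, with no test. A CCAAT box was in 12 of 18 hnRNP windows (66.7%) and in 2 of 10 SR protein windows, those of SRSF3 and SRSF8, against 35.1% of the windows of tested genes and 32.0% of all windows in the table. The E-box was in 5 hnRNP windows (27.8%), those of HNRNPM, HNRNPH3, HNRNPD, HNRNPA3 and HNRNPH2, and in no SR protein window, against 9.0% of tested genes and 6.3% of all windows. The GC box GGGCGG was in 14 of 18 hnRNP windows and 3 of 10 SR protein windows, against 68.5% of tested genes and 42.6% of all. The forkhead core TGTTTAC was in no window of either family, against 1.9% of tested genes and 3.0% of all, which says only that these letters are not in these 250 bases. The ETS core CCGGAAG was in 2 SR protein and 2 hnRNP windows (16.6% of tested genes, 8.5% of all), TATAAA in 2 and 3 (5.2% and 10.7%), and the YY1 core AAGATGG in none of either family (3.5% and 3.7%). In HNRNPM the E-box began 42 bases before the start. In SRSF3 a CCAAT box in each orientation lay 70 and 55 bases before the start, and TATAAA 30 bases before it. Of the 12 hnRNPs with a CCAAT box 10 were called higher, and of the 6 without one 5 were. Of all genes tested 27.2% were called higher, and 41.2% of those with a mean of at least 20 FPKM. The share called among all tested genes with or without the box was not examined. SRSF2 and HNRNPA1 had no entry in the table, and 78.4% of the tested genes had one.

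SRSF2, an SR protein of nuclear speckles that binds exonic enhancers, changed most. It was at 96.4, 83.9 and 80.8 FPKM in the siNC libraries (replicates 1 to 3), against 218, 235 and 219 FPKM in siFOXD3. Every siFOXD3 library was more than double any siNC library. The means differed 2.57 times, and the log2 fold change was 1.36 ± 0.07 (SE, adjusted p = 1.12e-07), above 99.5% of the genes tested. MFSD11, which overlaps SRSF2 on the opposite strand in GENCODE 29 and was named for that reason outside the rule, fell from 7.97 ± 1.22 to 6.34 ± 0.277 FPKM (SD, n = 3 each, adjusted p = 0.0329). Because the use of strand in counting is not stated, reads of SRSF2 and MFSD11 cannot be told apart where they overlap. SRSF8, a low-level relative of SRSF2 derived from a retrocopy, was at 3.71, 3.99 and 3.78 FPKM in siNC and 5.22, 4.98 and 5.22 FPKM in siFOXD3. It rose by 0.35 ± 0.08 on the log2 scale (SE, adjusted p = 0.00366), a value that was 0.20 with a pseudocount of 5 and 0.58 with quantile normalization, called in both. SRSF2 went from 22.8 ± 2.76 to 43.6 ± 3.04 times the level of SRSF8 (SD, n = 3 each).

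SRSF7 and SRSF3, related SR proteins that also act in messenger RNA export, rose together. SRSF7 was at 47.3, 45.8 and 46.2 FPKM in siNC and at 93.4, 99.0 and 101 FPKM in siFOXD3, a log2 fold change of 1.06 ± 0.05 (SE, adjusted p = 7.87e-08). SRSF3 was at 78.8, 81.8 and 81.9 FPKM in siNC and at 151, 153 and 154 FPKM in siFOXD3 (0.91 ± 0.04, adjusted p = 8.87e-08). The ranges of the groups were far apart for both genes. Within a library SRSF3 was 1.74 ± 0.065 times SRSF7 in siNC and 1.57 ± 0.048 times in siFOXD3 (SD, n = 3 each), so the pair kept nearly the same balance, with the siFOXD3 ratios all below the siNC ratios.

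SRSF1 and SRSF9, which share a second, atypical RNA recognition motif, parted. SRSF1, the founding SR protein and a known proto-oncogene, was at 62.0, 60.8 and 57.0 FPKM in siNC and 114, 115 and 115 FPKM in siFOXD3, a log2 fold change of 0.92 ± 0.05 (SE, adjusted p = 1.81e-07). SRSF9 was at 130, 111 and 117 FPKM in siNC and at 125, 135 and 145 FPKM in siFOXD3, so its groups overlapped. It was called higher by 0.18 ± 0.07 (SE, adjusted p = 0.04), a call lost when siNC replicate 2 or 3 was left out (adjusted p = 0.14 and 0.102) or siFOXD3 replicate 2 or 3 (0.0921 and 0.163), with no filter (0.0741), with quantile normalization (0.366), with limma without trend and robust (0.0911) and with the replicate block (0.0599). The SRSF1 level rose from 0.505 ± 0.037 to 0.848 ± 0.059 of the SRSF9 level (SD, n = 3 each).

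SRSF4, SRSF5 and SRSF6 are close relatives with 2 RNA recognition motifs each, and they differed among themselves. SRSF6 was at 39.8, 41.8 and 41.5 FPKM in siNC and 67.7, 69.2 and 69.5 FPKM in siFOXD3 (log2 fold change 0.73 ± 0.05, SE, adjusted p = 6.31e-07). SRSF4 rose less, from 17.3 ± 0.440 to 21.9 ± 0.927 FPKM (SD, n = 3 each), a log2 fold change of 0.32 ± 0.06 (SE, adjusted p = 0.00078). SRSF5 was at 115, 115 and 122 FPKM in siNC and at 113, 111 and 115 FPKM in siFOXD3, with no overlap before rounding. It was the only SR protein not called. Its log2 fold change was -0.06, with a 95% interval of -0.16 to 0.04, and it was at 0.002 with median-of-ratios scaling and at -0.16 with quantile normalization (adjusted p = 0.0188). SRSF6 therefore went from 0.350 ± 0.012 to 0.611 ± 0.013 of the SRSF5 level (SD, n = 3 each).

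SRSF10, which acts as a splicing repressor when dephosphorylated, stood on 2 rows of every file, and the rows were summed. The first row stood between genes of chromosome 1 and the second between genes mostly of chromosome 2, so what the second holds is not known. The first row rose from 21.6 ± 0.651 to 38.5 ± 0.315 FPKM and the second from 24.1 ± 0.219 to 42.9 ± 0.305 FPKM (SD, n = 3 each). Both rows moved alike, and their sum rose by 0.82 ± 0.05 on the log2 scale (SE, adjusted p = 2.36e-07). SRSF11, an SR-like protein that contacts the U2 auxiliary factor, was at 49.3, 60.4 and 59.5 FPKM in siNC and 66.5, 64.5 and 67.0 FPKM in siFOXD3. It was called higher by 0.23 ± 0.07 (SE, adjusted p = 0.019), a call lost when siFOXD3 replicate 1 or 3 was left out (adjusted p = 0.053 and 0.0583) or with quantile normalization (0.129). Without siNC replicate 1, its lowest library, the change was 0.14 (adjusted p = 0.0193).

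**Figure D2:**
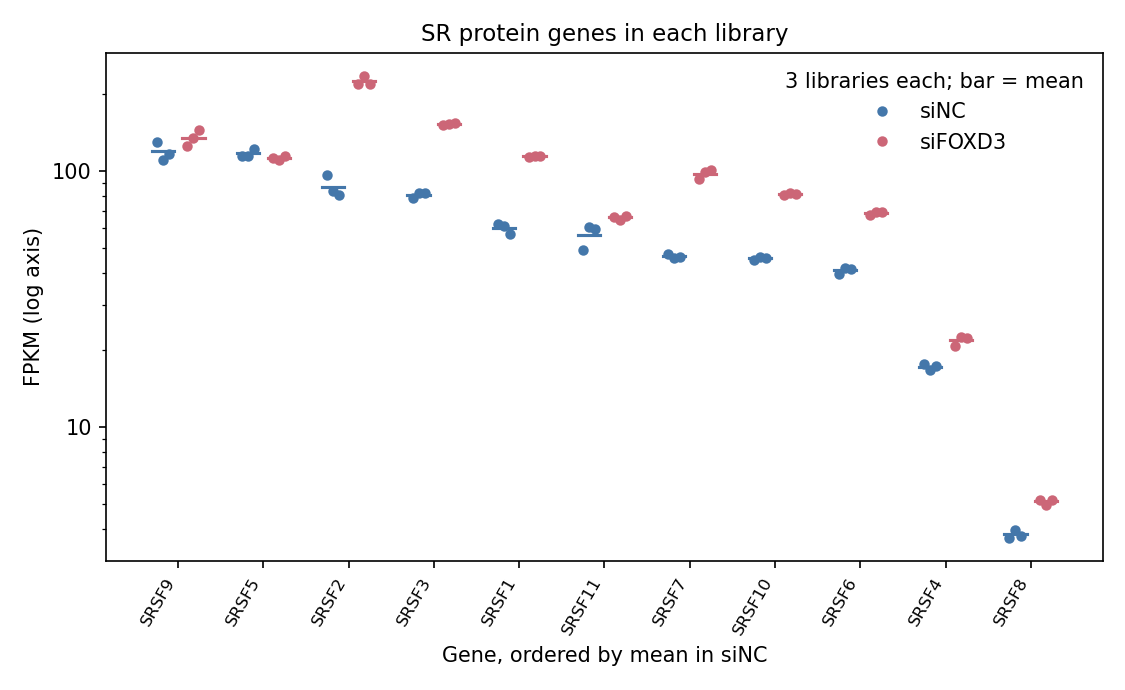
FPKM of each SR protein gene on a log axis, with 3 siNC and 3 siFOXD3 libraries as points and their mean as a bar, ordered by the siNC mean. SRSF2 moved from 87.0 to 224 FPKM, while the points of SRSF9 overlapped and those of SRSF5 lay slightly lower in siFOXD3.

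The order of the SR proteins by level changed. In siNC SRSF9 (17.7% of the family total) and SRSF5 (17.4%) were the most abundant, followed by SRSF2 (12.9%) and SRSF3 (12.0%). In siFOXD3 SRSF2 led with 20.7%, followed by SRSF3 (14.2%), SRSF9 (12.5%), SRSF1 (10.6%) and SRSF5 (10.4%). The share of SRSF2 rose by 7.85 percentage points, that of SRSF5 fell by 6.94 and that of SRSF9 fell by 5.13. SRSF9 and SRSF5 in siNC (119 ± 9.60 and 117 ± 3.80 FPKM) did not differ beyond their spread.

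Among the hnRNPs the A and B group parted most. HNRNPA1, which represses splice sites and was the most abundant member, was at 649, 641 and 650 FPKM in siNC and 672, 670 and 698 FPKM in siFOXD3. The groups did not overlap, but the log2 fold change of 0.07 (95% interval -0.01 to 0.15) was not called (adjusted p = 0.111). It became 0.13 (adjusted p = 0.0159) with median-of-ratios scaling and -0.13 (adjusted p = 0.00897) with quantile normalization, so its direction rested on the scaling. HNRNPA2B1, a close relative that also binds microRNA precursors, was at 267, 255 and 251 FPKM in siNC and 502, 504 and 531 FPKM in siFOXD3. It rose by 0.99 ± 0.04 on the log2 scale (SE, adjusted p = 6.7e-08), and its share of the hnRNP total went from 9.17% to 12.7% while that of HNRNPA1 went from 23.0% to 16.8%. HNRNPA2B1 was at 0.399 ± 0.013 of the HNRNPA1 level in siNC and at 0.753 ± 0.007 in siFOXD3 (SD, n = 3 each).

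HNRNPA3 also rose, and HNRNPA0 was not called. HNRNPA3 was at 129, 133 and 134 FPKM in siNC and at 203, 198 and 211 FPKM in siFOXD3 (0.63 ± 0.04, SE, adjusted p = 1.15e-06). HNRNPA0, which binds AU-rich elements, was at 82.6, 79.9 and 79.2 FPKM in siNC and at 87.6, 84.5 and 88.2 FPKM in siFOXD3. It was not called (0.11, 95% interval 0.00 to 0.21, adjusted p = 0.0617), but was called without siNC replicate 1 (0.12, adjusted p = 0.0248) and with median-of-ratios scaling (0.16, adjusted p = 0.0121). The ratio of HNRNPA0 to HNRNPA1 overlapped between groups, 0.125 ± 0.003 in siNC and 0.128 ± 0.002 in siFOXD3 (SD, n = 3 each). HNRNPA1L2, a retrocopy of HNRNPA1, was at 3.47, 4.13 and 4.31 FPKM in siNC and 5.39, 3.98 and 4.21 FPKM in siFOXD3 and was not called (adjusted p = 0.284), except with quantile normalization (0.39, adjusted p = 0.00928). GENCODE 29 lists 74 pseudogenes named after HNRNPA1 and 16 named after HNRNPA3, with 9 for HNRNPC and 5 for HNRNPK, all of which can share reads with their gene, so these levels are uncertain. HNRNPA1P10 averaged 53.7 ± 9.60 FPKM in siNC and 46.0 ± 1.22 FPKM in siFOXD3 (SD, n = 3 each, adjusted p = 0.103).

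HNRNPM, a splicing regulator known from epithelial-mesenchymal transition, rose most of the hnRNPs. It was at 90.9, 77.5 and 71.1 FPKM in siNC and at 197, 194 and 192 FPKM in siFOXD3, 2.43 times as high, with a log2 fold change of 1.28 ± 0.08 (SE, adjusted p = 4.07e-07). HNRNPAB and HNRNPD are relatives, the second of which (AUF1) binds AU-rich elements and promotes decay. HNRNPAB was at 109, 103 and 93.5 FPKM in siNC and 216, 223 and 212 FPKM in siFOXD3 (1.08 ± 0.06, adjusted p = 2.31e-07), and HNRNPD rose from 100.4 ± 4.0 to 156 ± 2.26 FPKM (SD, n = 3 each), by 0.63 on the log2 scale. None of these 3 genes overlapped between groups. HNRNPAB was level with HNRNPD in siNC, at 1.015 ± 0.048 times its value, and at 1.39 ± 0.029 times in siFOXD3 (SD, n = 3 each).

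HNRNPF, HNRNPH1, HNRNPH2 and HNRNPH3 bind runs of guanines. HNRNPF was at 198, 206 and 205 FPKM in siNC and 210, 211 and 212 FPKM in siFOXD3, and was not called (0.06, 95% interval -0.03 to 0.15, adjusted p = 0.234). It was called higher with median-of-ratios scaling (0.12, adjusted p = 0.0332) and lay at -0.05 with quantile normalization (adjusted p = 0.322). HNRNPH1 was at 111, 123 and 115 FPKM in siNC and 194, 202 and 193 FPKM in siFOXD3 (0.75 ± 0.05, SE, adjusted p = 8.49e-07), and HNRNPH3 at 65.9, 84.5 and 79.6 FPKM against 130, 139 and 139 FPKM (0.82 ± 0.08, adjusted p = 1.1e-05). HNRNPH2 rose less, from 34.3 ± 3.67 to 45.0 ± 4.86 FPKM (SD, n = 3 each, 0.38 on the log2 scale). HNRNPH1 thus went from 0.573 ± 0.023 to 0.930 ± 0.024 of the HNRNPF level (SD, n = 3 each).

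HNRNPC and HNRNPK were among the abundant members, and rose moderately. HNRNPC, which binds uridine tracts, was at 311, 301 and 311 FPKM in siNC and 373, 387 and 402 FPKM in siFOXD3 (0.33 ± 0.04, SE, adjusted p = 7.56e-05). HNRNPK, which binds cytosine-rich RNA, was at 281, 285 and 272 FPKM in siNC and 395, 403 and 406 FPKM in siFOXD3 (0.52 ± 0.04, adjusted p = 2.01e-06). HNRNPK kept its share of the family total, 9.94% ± 0.153 in siNC and 9.93% ± 0.039 in siFOXD3 (SD, n = 3 each). HNRNPL, which binds CA repeats, rose from 118 ± 13.8 to 192 ± 5.31 FPKM (SD, n = 3 each), by 0.71 on the log2 scale, while its relative HNRPLL, listed under its older symbol, rose by 0.17 ± 0.06 (SE, adjusted p = 0.028). HNRNPR rose from 59.99 ± 2.04 to 108 ± 3.15 FPKM (SD, n = 3 each), by 0.83, and its relative SYNCRIP by 0.87. The ratio of HNRNPR to SYNCRIP was 1.05 ± 0.085 in siNC and 1.02 ± 0.013 in siFOXD3 (SD, n = 3 each), with overlapping groups.

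HNRNPU, a nuclear scaffold protein that binds RNA and chromatin, was at 77.3, 88.3 and 83.8 FPKM in siNC and at 141, 141 and 143 FPKM in siFOXD3 (0.77 ± 0.05, SE, adjusted p = 1.11e-06). Its relatives rose less, HNRNPUL1 by 0.43 ± 0.04 and HNRNPUL2 by 0.34 ± 0.06 (SE, adjusted p = 1.33e-05 and 0.000323). HNRNPU-AS1 was at 26.9, 36.7 and 36.2 FPKM in siNC and at 31.7, 28.9 and 30.0 FPKM in siFOXD3 and was not called (-0.12, adjusted p = 0.325), although without siNC replicate 1 it was called lower (-0.26, adjusted p = 0.00198). The use of strand in counting is not stated, so reads of HNRNPU and its antisense RNA cannot be told apart. The same holds for members that overlap other genes on the opposite strand in GENCODE 29: HNRNPA2B1 with CBX3, HNRNPH3 with PBLD, HNRNPAB with PHYKPL, HNRNPU with COX20, HNRNPUL1 with TGFB1 and SRSF9 with GATC, among others. HNRNPUL2-BSCL2, which shares sequence with both of its genes, rose by 0.53 ± 0.08 (SE, adjusted p = 0.000152), and BSCL2 itself, named outside the rule, from 45.5 ± 1.40 to 54.7 ± 2.76 FPKM (SD, n = 3 each).

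**Figure D3:**
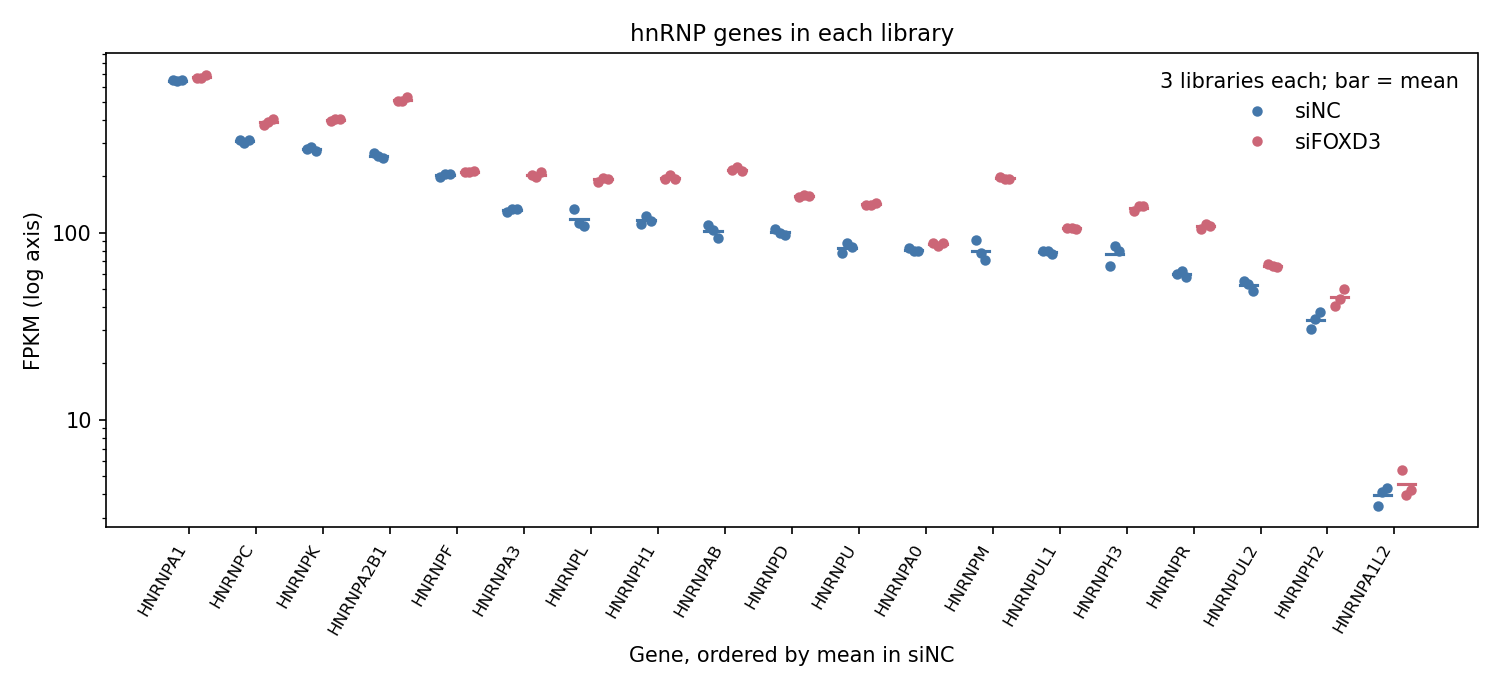
FPKM of each hnRNP gene on a log axis, with 3 siNC and 3 siFOXD3 libraries as points and their mean as a bar, ordered by the siNC mean. HNRNPA2B1 passed HNRNPC and HNRNPK in siFOXD3 (512 FPKM against 387 and 401.5), while HNRNPF stayed between 198 and 212 FPKM in all libraries.

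**Figure D4:**
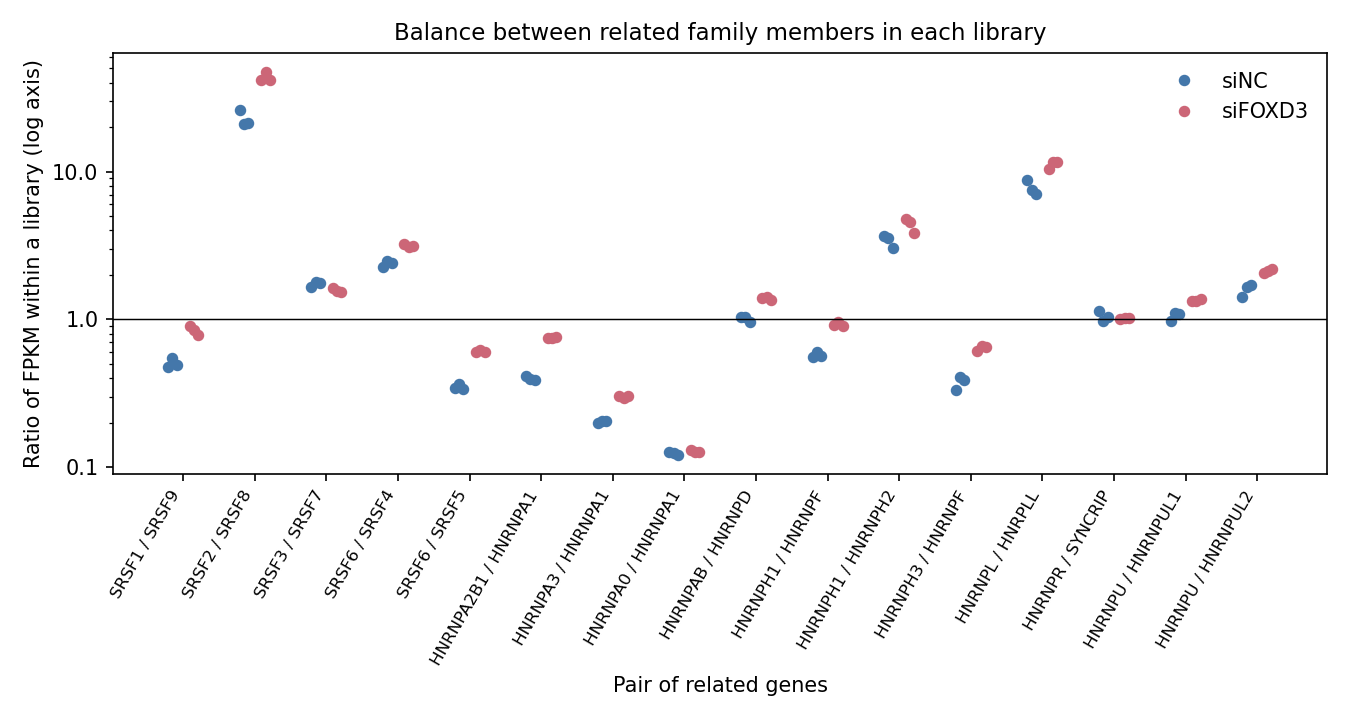
Ratio of FPKM between related genes within each library on a log axis, 3 siNC and 3 siFOXD3 libraries per pair, with a line at a ratio of 1. The ratios of HNRNPA2B1 to HNRNPA1, HNRNPH1 to HNRNPF and SRSF1 to SRSF9 rose without overlap, while HNRNPA0 to HNRNPA1 and HNRNPR to SYNCRIP overlapped.

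For 20 such ratios the smallest p of a two-sided exact permutation test at this size is 0.1 (0.125 after Benjamini-Hochberg adjustment), which every ratio without overlap gave, so none could pass the threshold. In several pairs of both families the relative that rose less or was not called was the more abundant one in siNC. These were SRSF9 over SRSF1, SRSF5 over SRSF6, SRSF3 over SRSF7, HNRNPA1 over HNRNPA2B1 and HNRNPA3, and HNRNPF over HNRNPH1 and HNRNPH3. The reverse held for SRSF2 over SRSF8, SRSF6 over SRSF4, HNRNPL over HNRPLL, HNRNPH1 over HNRNPH2 and HNRNPU over HNRNPUL2, where the more abundant gene rose more. HNRNPAB and HNRNPD, HNRNPR and SYNCRIP, and HNRNPU and HNRNPUL1 were near level in siNC. Neither HNRNPA0 nor HNRNPA1 was called. The pairs did not share 1 order of level and change.

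In GENCODE 29 all 11 SR proteins have at least 1 transcript classed as a target of nonsense-mediated decay, against 11 of 19 hnRNPs (57.9%) and 43.4% of the protein-coding genes tested. Retained-intron transcripts are listed for 8 of 11 SR proteins and 13 of 19 hnRNPs, against 58.7% of those genes. SRSF7 has 6 decay transcripts and HNRNPU 9, the most in each family, and both rose. HNRNPA0, HNRNPA1L2 and HNRNPF have none, and none of these was called, but HNRNPAB, HNRNPA3, HNRNPH2, HNRNPH3 and HNRNPUL2 have none and were called higher. For HNRNPA0, HNRNPA1L2 and HNRNPH2 only 1 transcript of any class is listed. The median number of listed transcripts is 9 for SR proteins, 11 for hnRNPs and 8 for the protein-coding genes tested. HNRNPA1, which was not called, has 1 decay and 3 retained-intron transcripts. SRSF5, which was not called, has 1 decay and 8 retained-intron transcripts.

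Genes that act with the families were examined in lists, each to be read against the 27.2% of all tested genes called higher and the 38.7% called lower. Of 18 tested hnRNP-type proteins with other symbols, 12 rose and 2 fell (median log2 fold change 0.29, against -0.08 for all genes). SYNCRIP rose by 0.87, TARDBP by 0.76 and the polypyrimidine tract protein PTBP1 by 0.74. Of 25 SR-related proteins, 18 rose and 4 fell (median 0.42). The larger subunit of the U2 auxiliary factor, U2AF2, rose from 85.3 to 179.5 FPKM (1.07), BCLAF1 by 1.00, and the splicing activators TRA2A and TRA2B by 0.72 each. The largest falls in these lists were those of PCBP4 (-0.51) and ARGLU1 (-0.59), both chosen after their values were seen.

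Of 14 tested genes for the kinases, phosphatase subunits and import receptors of SR proteins, 5 rose, 2 fell and 7 did not pass (median 0.10), a share of rises near the 27.2% of all genes. The import receptor TNPO1 (0.65), the phosphatase subunit PPP1CA (0.53) and the kinase PRPF4B (0.41) rose, and the kinase CLK3 fell from 15.03 to 10.8 FPKM (-0.44). The main SR protein kinases SRPK1 (48.1 and 50.9 FPKM, adjusted p = 0.227) and SRPK2 (14.4 and 13.6 FPKM, adjusted p = 0.479) and the kinase CLK1 (24.6 and 23.4 FPKM, adjusted p = 0.438), chosen after their values were seen, were not called. Arginine methyltransferases modify many hnRNPs. Of 9 tested genes for these enzymes and for WDR77, the partner of PRMT5, 6 rose and 1 fell (27.2% and 38.7% of all genes). The median was 0.27. WDR77, not itself a methyltransferase, rose from 23.7 to 47.6 FPKM (0.98), PRMT3 by 0.64, PRMT5 by 0.60 and PRMT6 by 0.48.

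Of 19 nonsense-mediated decay factors, 14 rose and 2 fell, with a median of 0.32, where 27.2% of all genes rose and 38.7% fell. UPF3B rose from 13.8 to 25.7 FPKM (0.86), the exon junction proteins MAGOHB by 0.78 and EIF4A3 by 0.71, and the cap-binding protein NCBP1 by 0.76. The list named tissue-restricted splicing regulators also held RBM4, RBM5, RBM10, TIA1, TIAL1 and CELF1, whose roles are not restricted to a tissue. Of its 15 tested genes, 4 rose, 3 fell and 8 did not pass (median 0.06). All of these broader regulators were among the 8, so the counts and median do not describe tissue-restricted genes alone. The share of the list that rose was about that of all genes (27.2%), and 38.7% of all genes fell. Members of the muscleblind family went opposite ways, MBNL3 from 3.12 to 6.76 FPKM (0.93), MBNL1 from 51.5 to 77.1 FPKM (0.58) and MBNL2 from 36.6 to 16.3 FPKM (-1.10). The epithelial splicing regulators parted as well, with ESRP2 rising by 0.54 and ESRP1, chosen after its value was seen, falling from 82.5 to 62.0 FPKM (-0.40).

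**Figure D5:**
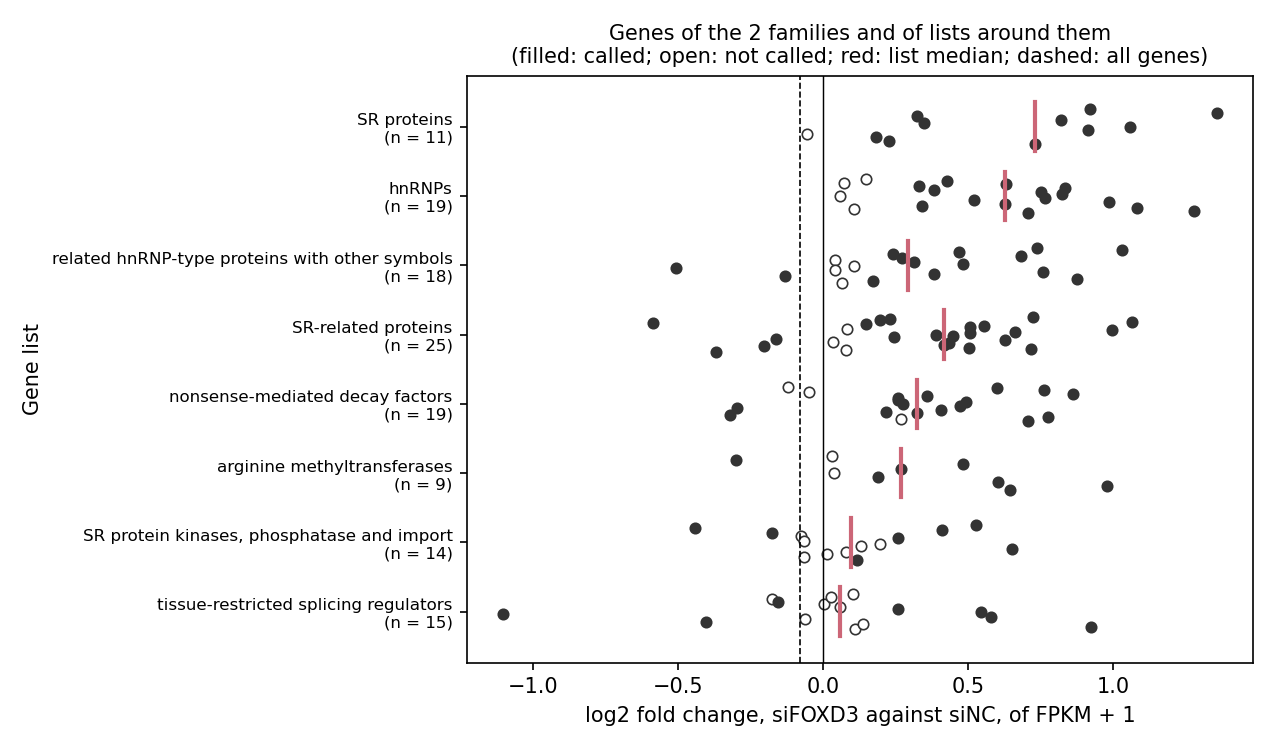
Log2 fold change of FPKM + 1 (siFOXD3 against siNC) for each tested gene of the 2 families and of 6 lists around them, filled where called, with the list median as a red bar and the all-gene median of -0.08 as a dashed line. The medians of SR proteins (0.73) and hnRNPs (0.63) lie to the right of all 6 lists, whose medians run from 0.06 to 0.42.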

How the data were processed

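RNA of 6 A549 libraries was available as 1 table per library. The unit deposited by the authors is FPKM per gene symbol (file headers). The submitters' processing notes name TopHat and Cufflinks as tools and hg19 as genome build. Tool versions, annotation and strand handling: not given in the sources used here. Rows of 1 symbol were summed and absent symbols set to 0. Depth is not in the files. It was estimated from steps between low values of genes with 1 transcript of 700 to 4000 bases, at an assumed fragment length of 150 bases. That gave 7620000 to 7980000 fragments per library in siNC and 8200000 to 9160000 in siFOXD3, without overlap. The fit was weak, with scores of 0.158 to 0.262 where 1 is perfect, so these depths are rough.

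FPKM are not counts, so log2(FPKM + 1) was fitted with limma 3.58.1 in R 4.3.3 (trend and robust, group as the only term) on genes with at least 1 FPKM in at least 3 libraries. Benjamini-Hochberg adjustment ran over all 12555 genes tested, two-sided, and fold changes on this scale understate low genes. The fit was also run on simulated data with independent noise and few changed genes. Most of the genes tested were called here, so that run does not bear on these calls. Python 3.11.15, pandas 2.3.3, numpy 2.4.6, scipy 1.17.1 and matplotlib 3.10.9 did the rest.

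Members and lists were chosen with earlier results of these data known. Named were all members, FOXD3, and of each list up to 4 called genes with the largest change (the 2 most abundant where fewer than 2 were called), plus genes marked as chosen later; 1 gene that the rule names is not reported here. Promoter windows are from RefSeq (GRCh38.p14) and transcript classes from GENCODE 29, matched by symbol; 28 of 30 protein genes had a window. The alternatives were other pseudocounts (0.1 and 5), filters, scalings, limma settings, a test against a fold of 1.2, the largest row of a symbol, a replicate block, and leaving out each library.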

Additional observations from a re-analysis of the deposited data

How the results depend on the processing

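Over 16 alternatives, 19 of 32 members kept their direction and their side of the threshold in every one. SR proteins called higher numbered 6 to 10 and hnRNPs 12 to 18, and the difference of family medians ran from 0.07 to 0.15, with SR proteins above in each. Against a fold of 1.2, limma called 6 SR proteins higher and 4297 genes in all, and SRSF4, SRSF8, SRSF9, SRSF11, HNRNPC, HNRNPH2 and HNRNPUL2 lost their calls. With quantile normalization 1 SR protein (SRSF5) and 1 hnRNP (HNRNPA1) were called lower and the hnRNP median was 0.52. Reversed values were 0.002 for SRSF5 with median-of-ratios scaling and, with quantile normalization, -0.13 for HNRNPA1 and -0.048 for HNRNPF. The cause was not tested.

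Same-numbered libraries deviated from their group means with correlations of 0.061, 0.163 and 0.115 across genes, so the numbers were not taken as pairs, although every library correlated best with its own number. With the replicate block 8172 genes were called in place of 8278, and among members SRSF9 lost its call. SRSF8 and HNRNPA1L2, at about 3 to 5 FPKM, rest on few fragments.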
